A study of Mus musculus with 6 samples.

Results

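The Hox gene clusters of the mouse were examined in chromatin of primary myotubes. The members were the protein-coding genes whose symbol begins with Hoxa, Hoxb, Hoxc or Hoxd followed by a number in an annotation of NCBI Build 37 (mm9), which gave 39 of 22219 protein-coding genes. HoxA held 11 members on chromosome 6 (chr6:52105366-52210797), HoxB held 10 on chromosome 11 (chr11:96055630-96229570), HoxC held 9 on chromosome 15 (chr15:102751534-102866836) and HoxD held 9 on chromosome 2 (chr2:74506367-74603200). The study mapped where Sox6, a transcription factor of the SRY-related HMG-box family, and RNA polymerase II (Pol II) bind in fetal muscle cells.

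Every library came from the same kind of cell. Myoblasts of wild-type C57BL/6 fetuses at embryonic day 18.5 were isolated from limb muscle, carried at passage 17, and kept for 48 hours in differentiation medium with 2% horse serum, in which they fuse into myotubes. Sox6 ChIP, Pol II ChIP (antibody 4H8) and input DNA made 3 groups of 2 libraries. No second genotype, age or treatment was sequenced, so each comparison is between a ChIP and input, or between genes and clusters within the same libraries. The study's methods describe the replicates of each ChIP as independent experiments, although neither they nor the labels say whether separate cultures or animals were used. The p-values of the fits rest on 2 libraries in each group. For Pol II at start sites their spread was taken from a trend over all genes, and the exact tests on reads cover counting error alone.

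Hox genes encode homeodomain transcription factors that give body segments and limb segments their identity along an axis. Within a cluster the genes lie in the order of their expression domains, from group 1 at the anterior end to group 13 at the posterior or distal end, and genes with the same number in different clusters are paralogs. Trithorax-type complexes that contain MLL proteins are known to maintain active Hox genes and Polycomb complexes to keep the others silent, and cells in culture often keep part of the positional pattern of their origin.

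Depth set the precision of all values. The Sox6 libraries held 2985437 and 1468604 mapped reads, the Pol II libraries 1538757 and 2762155, and the input libraries 21973495 and 24249850. In the 2 kb around a member's start site the Pol II libraries gave between 0 and 34 reads and the input libraries between 4 and 64, so single genes rested on few reads. Pol II at marker genes went with the label of the cells, although the lists were chosen with earlier results of these data known. It was above input at the start sites of all 10 myotube markers tested (median log2 ratio 5.15), beside 40.3% of all genes. This held at 0 of 6 fibroblast, 0 of 4 adipocyte, 0 of 5 blood and endothelium, 1 of 4 neuron and 1 of 3 chondrocyte markers, the last being Sox9. Over genes it held at 10 of 10 myotube, 1 of 4 adipocyte, 1 of 4 neuron and 1 of 3 chondrocyte markers. No fibroblast or blood and endothelium marker was higher over the gene, beside 39.3% of all genes. Input reads were also uneven along the genome. In 2.5 Mb to each side of the clusters the input density relative to the genome average was 1.80 and 1.75 (replicates 1 and 2) at HoxA, 1.31 and 1.38 at HoxB, 0.721 and 0.744 at HoxC and 1.55 and 1.46 at HoxD. The ratios to input below therefore use input reads of the same window.

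Pol II over the whole clusters differed widely. Over HoxA the Pol II libraries held 345 and 613 reads against 1714 and 2043 input reads. In reads per 1000000 mapped reads (RPM) this was 2.87 times input in replicate 1 (exact 95% interval 2.55 to 3.23) and 2.63 times in replicate 2 (2.40 to 2.88). Over HoxB, the longest cluster, the libraries held only 31 and 83 Pol II reads against 1309 and 1538 input reads, or 0.338 (0.229 to 0.482) and 0.474 (0.375 to 0.591) times input. HoxC stood at 2.02 (1.70 to 2.37) and 1.97 (1.73 to 2.23) times input, from 166 and 295 Pol II reads. HoxD stood at 1.36 (1.08 to 1.70) and 1.34 (1.13 to 1.59), from 86 and 157 Pol II reads. The order HoxA, HoxC, HoxD, HoxB was the same in both replicates. All 6 pairs of clusters differed in both replicates by the exact two-sided Fisher test on Pol II and input reads, adjusted over 12 tests. The adjusted p was 5.64e-46 and 2.53e-60 for HoxA against HoxB, and it was largest for HoxC against HoxD, at 0.00460 and 0.000395. The ratio of HoxA to HoxB was 8.50 and 5.56, that of HoxA to HoxC 1.43 and 1.34, and that of HoxC to HoxD 1.48 and 1.47. These intervals and tests cover counting error only, and in a bulk culture a smaller share of cells with Pol II at a cluster and less Pol II in each cell cannot be told apart.

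**Figure D1:**
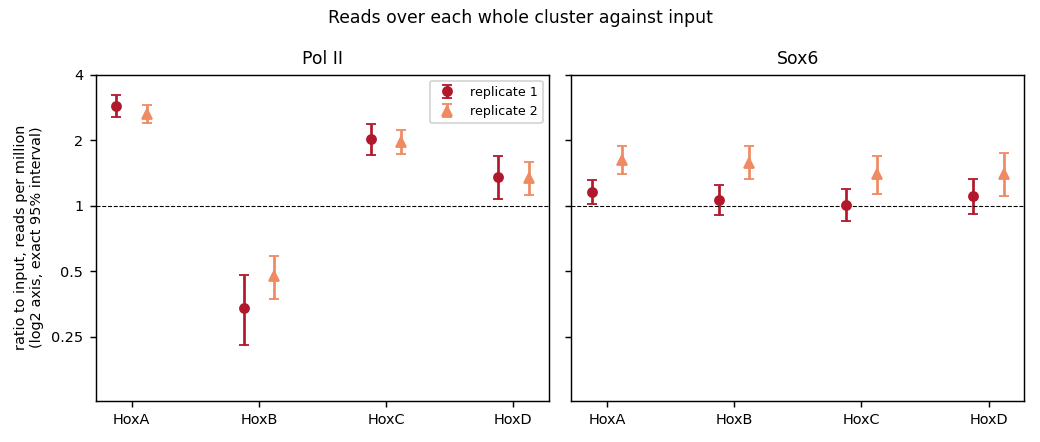
Ratio of ChIP to input RPM over each whole cluster (y axis, log2 scale) for Pol II (left) and Sox6 (right), 1 point per replicate with its exact 95% interval from counting. Pol II runs from 2.87 and 2.63 at HoxA down to 0.338 and 0.474 at HoxB, whereas Sox6 lies between 1.01 and 1.62 in all 4 clusters.

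Within 3 of the clusters the ratio of Pol II to input was low toward the group 13 end. In 5 kb bins along HoxA, the ratio to input was 0.580 and 1.30 in the bin before the cluster. It was highest 75 to 80 kb into the cluster, where Hoxa9 and Hoxa10 meet, at 7.93 and 5.30, in a bin with few input reads (36 and 58). The bin from 95 to 100 kb, beyond Hoxa11, still stood at 3.83 and 1.90, and the next, from 100 to 105 kb with Hoxa13 in it, had 0.638 and 0.406. The dip from 15 to 45 kb, over the introns of the long Hoxa3 model and around Hoxa4, had ratios between 0.621 and 2.57. In HoxC the bins of the 30 kb at the group 13 end lay between 0.219 and 1.30, the bin at 35 kb, just past the Hoxc11 start, had 3.49 and 3.31, and the highest bin, at 75 kb and around Hoxc6, reached 6.16 and 5.02. In HoxD the bins of the 25 kb at that end, which hold Hoxd13, Hoxd12, Hoxd11 and Hoxd10, lay between 0 and 1.35. Replicate 1 was highest at 35 kb, in the bin that holds Hoxd8 (4.17, with 2.58 in replicate 2), and replicate 2 in the next bin, toward the Hoxd3 start (3.07, with 2.22 in replicate 1). Hoxd1, at the other end of HoxD, lay mostly in a bin of 0.669 and 0.169, with its first bases in one of 0 and 0.298. In HoxB no bin inside the cluster exceeded 1.29. These bins were chosen after their values were seen, and no test was made of them.

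**Figure D2:**
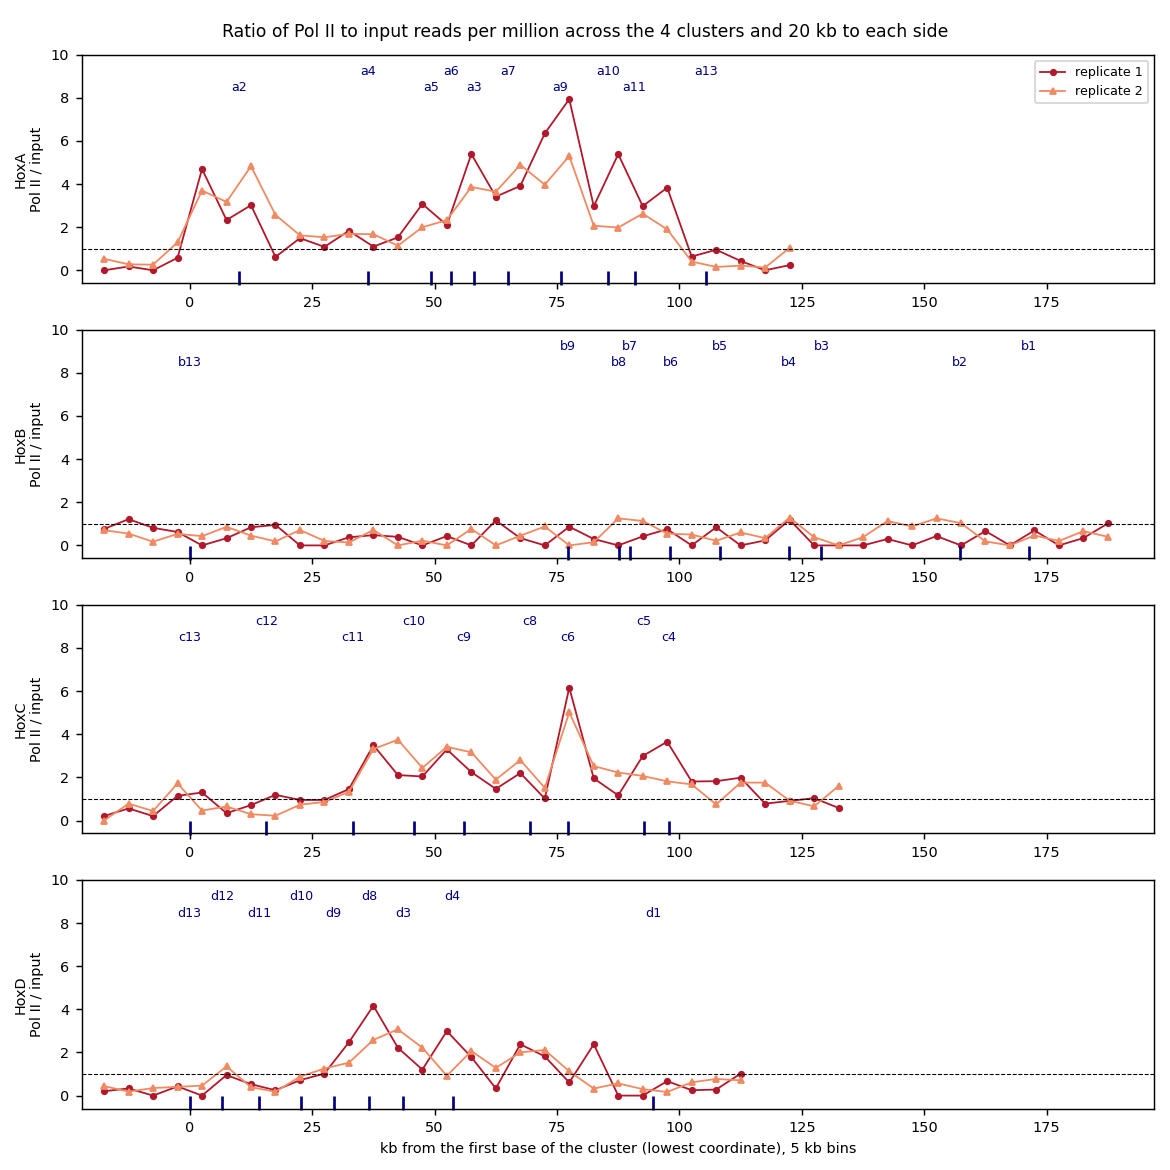
Ratio of Pol II to input RPM in 5 kb bins (y axis) along each cluster and 20 kb to each side (x axis, kb from the lowest coordinate), with 1 line per replicate, gene names above start sites and a dashed line at the genome average of 1. At the group 13 ends of HoxA, HoxC and HoxD the ratio lies between 0 and 1.35, and in HoxB both lines stay between 0 and 1.29 inside the cluster.

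At single start sites, 17 of the 39 members had more Pol II than input by limma with Benjamini-Hochberg adjustment over all 20767 genes tested, and 0 had less. This share was near the background: 40.3% of all genes tested were called higher and 1.38% lower. The median log2 ratio was 0.87 over the members and 0.74 over all genes tested. The log2 ratio is that of RPM with 0.5 reads added to each count, which raises the ratio of windows with few ChIP reads. With a pseudocount equal in RPM, 12 members were called higher and 6 lower, against 6693 and 2921 of all genes. The members' windows had a median GC content of 54.7%, against 51.7% for all genes tested, and after the trend of the ratio on GC content was subtracted 5 were called higher and 7 lower, against 4350 and 1351 of all genes. With voom weights the count called higher was 0 (3 members with an unadjusted p below 0.05), as against 725 of all genes. Where 1 library of a pair is left out, the lone library is assumed to vary like the pair that remains, so counts of calls also move with the spread of that pair. Without input replicate 1 the median log2 ratio was 0.62 over the members and 0.75 over all genes tested, and without input replicate 2 it was 1.29 and 0.99. The members called higher were spread unevenly, with 9 of 11 in HoxA, 0 of 10 in HoxB, 5 of 9 in HoxC and 3 of 9 in HoxD. None of the members of groups 12 and 13 was among them. The start windows of 25 of the 39 members also held part of another gene, coding or noncoding. Among the members called higher, only Hoxa7, Hoxa10 and Hoxc4 had a window without one. In the shared windows the reads cannot be assigned to 1 gene. Summed over the start windows of groups 12 and 13 in all clusters, Pol II held 2 and 6 reads against 66 and 82 input reads, 0.433 (0.0513 to 1.63) and 0.642 (0.229 to 1.46) times input. For groups 1 to 3 the ratio was 3.09 and 3.19, of which HoxA gave 33 of 37 and 64 of 78 Pol II reads, while the HoxB genes of these groups held 1 and 4 against 45 and 52 input reads. For groups 4 to 8 it was 2.13 and 2.08, and for groups 9 to 11 it was 3.57 and 2.58.

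**Figure D3:**
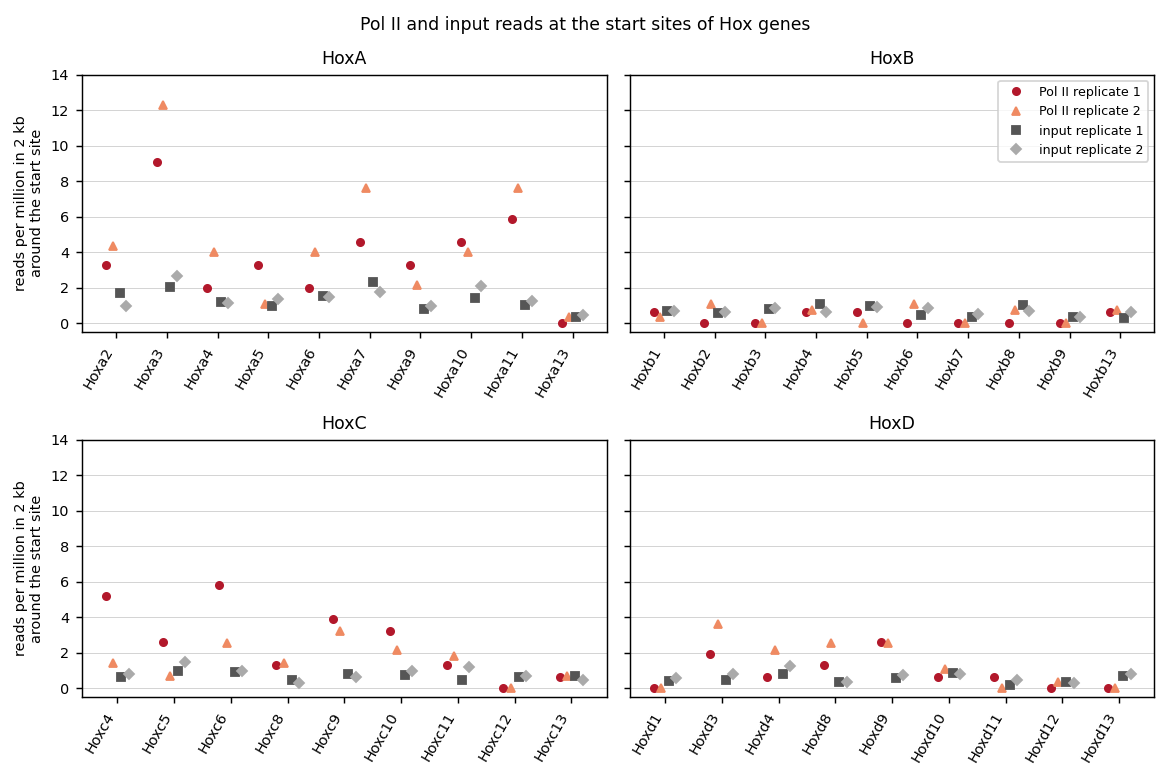
RPM in the 2 kb around the start site (y axis) of most members, some of them not named in the text, in order of number (x axis), for the 2 Pol II and the 2 input libraries, 1 point per library. In HoxA all genes plotted but Hoxa5 and Hoxa13 have both Pol II points above both input points, and in HoxB no Pol II point exceeds 1.09 RPM.

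The anterior HoxA genes named here were called at their starts. Hoxa2, which patterns the branchial arches, had 5 and 12 Pol II reads against 37 and 23 input reads (log2 ratio 1.64, SE 0.41, limma adjusted p = 0.000188). For Hoxa3 the longest annotated model begins upstream of Hoxa6, inside the cluster, and this start held 14 and 34 Pol II reads against 45 and 64 (2.21, SE 0.29, adjusted p = 1.37e-13). The starts of Hoxa3 nearer to its coding exons held less: 4 and 5 Pol II reads against 35 and 36 at the start at position 52133854, and 1 and 6 against 10 and 26 at the start at position 52122648. With the shortest model Hoxa3 was not called (1.07, adjusted p = 0.222). The signal assigned to Hoxa3 thus came mostly from a start that lies among Hoxa5, Hoxa6 and Hoxa7, and a noncoding gene, 2700086A05Rik, shares that window. With the GC trend subtracted Hoxa2 did not pass by limma (0.59, adjusted p = 0.299), whereas Hoxa3 did (1.37, adjusted p = 2.11e-05).

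Of the central HoxA genes, Hoxa4, Hoxa6 and Hoxa7 were called at their starts and Hoxa5 was not. Hoxa4 had 3 and 11 Pol II reads against 26 and 27 (log2 ratio 1.396, SE 0.45, limma adjusted p = 0.00605), and Hoxa6 had 3 and 11 against 33 and 36 (1.02, SE 0.42, adjusted p = 0.0368). Hoxa5 did not pass, with 5 and 3 reads against 21 and 33 (0.87, SE 0.51, adjusted p = 0.177). Hoxa7, a regulator of axial identity, had 7 and 21 reads against 51 and 42 (1.60, SE 0.33, adjusted p = 4.06e-06). In each of these genes replicate 1 rested on 7 reads or fewer. With the GC trend subtracted Hoxa4 was at -0.29 and Hoxa6 at -0.19, and with the replicate block Hoxa6 did not pass (adjusted p = 0.0543).

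The posterior HoxA genes, which pattern the limb from its upper segment outward, were followed by a gene with hardly any Pol II. Hoxa10 had 7 and 11 Pol II reads against 31 and 50 at its start (log2 ratio 1.38, SE 0.36, limma adjusted p = 0.000500). Hoxa11, which patterns the forearm and lower leg, had 9 and 21 against 23 and 30 (2.58, SE 0.36, adjusted p = 8.91e-12), the highest ratio of all members. A noncoding antisense gene, Hoxa11as, lies in that window, and without strand in the assay their shares cannot be told apart. With the GC trend subtracted Hoxa10 did not pass by limma (0.36, adjusted p = 0.504), whereas Hoxa11 did (1.21, adjusted p = 0.0119). Hoxa13, the gene of the hand and foot plate, had 0 and 1 Pol II reads against 8 and 11 at its start. Over its whole length it had 0 and 1 against 39 and 43 (log2 ratio -2.10, SE 0.64, adjusted p = 0.0167). Pooled over the replicates this single read was 0.131 times input, with an exact 95% interval of 0.00328 to 0.751.

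HoxB, which is active in hindbrain, spinal cord and blood, gave 4 and 13 Pol II reads over all 10 start windows together, against 144 and 161 input reads. This was 0.397 (0.107 to 1.04) and 0.709 (0.369 to 1.25) times input. Hoxb3, Hoxb7 and Hoxb9 had 0 reads in both Pol II libraries, and a count of 0 allows up to 3 reads in each. The highest count in any HoxB window was 3 reads, at Hoxb2 and at Hoxb6 in replicate 2. Over the genes, Hoxb6 had 1 and 3 Pol II reads against 74 and 68 (log2 ratio -1.48, SE 0.47, limma adjusted p = 0.0204), and Hoxb3 had 2 and 14 against 153 and 219 (-1.45, SE 0.50, adjusted p = 0.0280). The Hoxb3 ratio was -0.60 without Pol II replicate 1 and -2.29 without Pol II replicate 2. The other 8 HoxB genes were called in neither direction.

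In HoxC the calls lay between Hoxc4 and Hoxc11. Hoxc4, expressed in neck and upper trunk, had 8 and 4 Pol II reads against 14 and 20 at its start (log2 ratio 2.01, SE 0.53, limma adjusted p = 0.000534). Its ratio was 1.13 without Pol II replicate 1 and 2.89 without Pol II replicate 2, and at the start of the shortest model it did not pass (1.43, adjusted p = 0.0697). Hoxc6, a gene of the upper thorax and the forelimb field, had 9 and 7 against 20 and 24 (2.08, SE 0.44, adjusted p = 1.01e-05), with ratios of 1.48 and 2.67 without Pol II replicates 1 and 2. At another annotated Hoxc6 start, at position 102830960, Pol II was denser still, with 11 and 25 reads against 23 and 37, but at the start of its shortest model, at 102839910, there were 1 and 4 against 18 and 32, and Hoxc6 was not called there (0.25, adjusted p = 0.812). Between these genes Hoxc5, with 4 and 2 reads against 22 and 36, did not pass (0.39, adjusted p = 0.630). Hoxc8 had 2 and 4 reads against 11 and 8 (1.93, SE 0.76, adjusted p = 0.0295), the weakest call of the cluster, which did not pass with the replicate block (adjusted p = 0.0608). Hoxc9 had 6 and 9 against 18 and 16 (2.33, SE 0.49, adjusted p = 7.55e-06). Hoxc10, expressed in the hindlimb, had 5 and 6 against 16 and 24 (1.74, SE 0.51, adjusted p = 0.00206). Hoxc11, also a hindlimb gene, missed the threshold at its start with 2 and 5 reads against 11 and 29 (1.17, SE 0.62, adjusted p = 0.122), but over the gene it had 7 and 10 against 23 and 33 (1.82, SE 0.44, adjusted p = 0.00463). Hoxc12 and Hoxc13 had 0 and 0, and 1 and 2, Pol II reads at their starts. With the GC trend subtracted only Hoxc6 kept its call at the start by limma (1.36, adjusted p = 0.00753). Hoxc4 was then at 1.04 (adjusted p = 0.134) and Hoxc8 at 0.56 (adjusted p = 0.650). Hoxc9 was at 0.94 (adjusted p = 0.190) and Hoxc10 at 0.35 (adjusted p = 0.690).

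In HoxD 3 neighbouring genes were called at their starts. Hoxd3 had 3 and 10 Pol II reads against 11 and 19 (log2 ratio 2.18, SE 0.56, limma adjusted p = 0.000351) at the start of its longest model, which lies between Hoxd8 and Hoxd4. At the start of its shortest model, at position 74583731, it had 1 and 0 against 17 and 14, and the ratio there was -0.72. Hoxd8 had 2 and 7 against 8 and 9 (2.43, SE 0.73, adjusted p = 0.00272). Hoxd9, the limb-type gene next to it, had 4 and 7 against 13 and 18 (2.04, SE 0.56, adjusted p = 0.000852). With the GC trend subtracted none of these 3 genes passed by limma. Hoxd3 was then at 0.98 (adjusted p = 0.220), Hoxd8 at 0.36 (adjusted p = 0.791) and Hoxd9 at 0.39 (adjusted p = 0.706). From Hoxd10 to Hoxd13, the genes of the distal limb, the starts held at most 1 read in replicate 1 and 3 in replicate 2. Over its length Hoxd11 had 0 and 1 Pol II reads against 49 and 37 (-2.15, SE 0.65, adjusted p = 0.0157), pooled 0.125 times input (0.00313 to 0.715). Hoxd1, at the anterior end, had 0 and 0 at its start against 9 and 14 input reads. On chromosome 2 the input libraries differed, at 1.10 and 1.25 times their genome average, while both Pol II libraries stood at 1.29. With scaling to peak-free bins of the same chromosome, 19 of the 39 members were called higher at their starts, beside 9706 of 20767 genes tested.

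Over whole genes, 16 members had more Pol II than input and 4 less by limma adjusted over 20118 genes, against a background of 39.3% higher and 23.6% lower. The median log2 ratio was 0.87 over the members and 0.20 over all genes tested. The 4 lower genes were Hoxa13, Hoxb3, Hoxb6 and Hoxd11. With scaling to peak-free bins only Hoxd11 stayed called lower (log2 ratio -1.66, adjusted p = 0.0491), while Hoxa13 had an adjusted p of 0.0537, Hoxb6 of 0.0990 and Hoxb3 of 0.131. With such bins of the same chromosome 2 were called lower, Hoxb6 and Hoxd11, and with the shortest model 0. Among all genes tested these settings called 2654, 2724 and 4066 lower. The log2 ratios of these 4 genes stayed below 0 in every alternative setting. Without input replicate 1 the median log2 ratio was 0.56 over the members and 0.15 over all genes. It was 0.79 and 0.25 without input replicate 2, 0.50 and 0.18 without Pol II replicate 1, and 0.86 and 0.29 without Pol II replicate 2. With the GC trend subtracted, 7 members were called higher and 8 lower, beside 6720 and 5500 of 20118 genes. Of the members, 14 were higher both at the start and over the gene, and 19 in at least 1 of the 2 windows. Hoxa9 had the highest ratio, with 36 and 47 Pol II reads against 79 and 112 (2.30, SE 0.25, adjusted p = 2.67e-05). Its neighbours in the cluster were also called: Hoxa11 with 20 and 22 against 43 and 69 (2.13, SE 0.35, adjusted p = 0.000501), Hoxa7 with 34 and 48 against 105 and 115 (2.05, SE 0.22, adjusted p = 2.31e-05) and Hoxa10 with 40 and 58 against 124 and 171 (1.90, SE 0.21, adjusted p = 2.74e-05). Hoxd9 had 4 and 9 reads against 14 and 20 (2.09, SE 0.51, adjusted p = 0.00500), and Hoxc6 had 37 and 72 against 167 and 199 (1.68, SE 0.17, adjusted p = 1.66e-05). The calls on Hoxa3, Hoxa7, Hoxa9, Hoxa10 and Hoxa11 were the 5 that stayed in all 15 alternative settings. The long Hoxa3 model spans Hoxa4, Hoxa5 and Hoxa6 and overlaps Hoxa2, and its 108 and 238 reads include theirs. Hoxd3 (38 and 78 against 344 and 390) and Hoxd4 (8 and 18 against 55 and 71) overlap in the same way.

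The other 6 genes called higher over their length were Hoxa2 (8 and 17 Pol II reads against 56 and 54), Hoxa6 (5 and 18 against 50 and 59), Hoxc4 (29 and 31 against 187 and 185), Hoxc9 (10 and 24 against 93 and 80), Hoxc10 (9 and 14 against 55 and 46) and Hoxd8 (8 and 9 against 26 and 33).

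**Figure D4:**
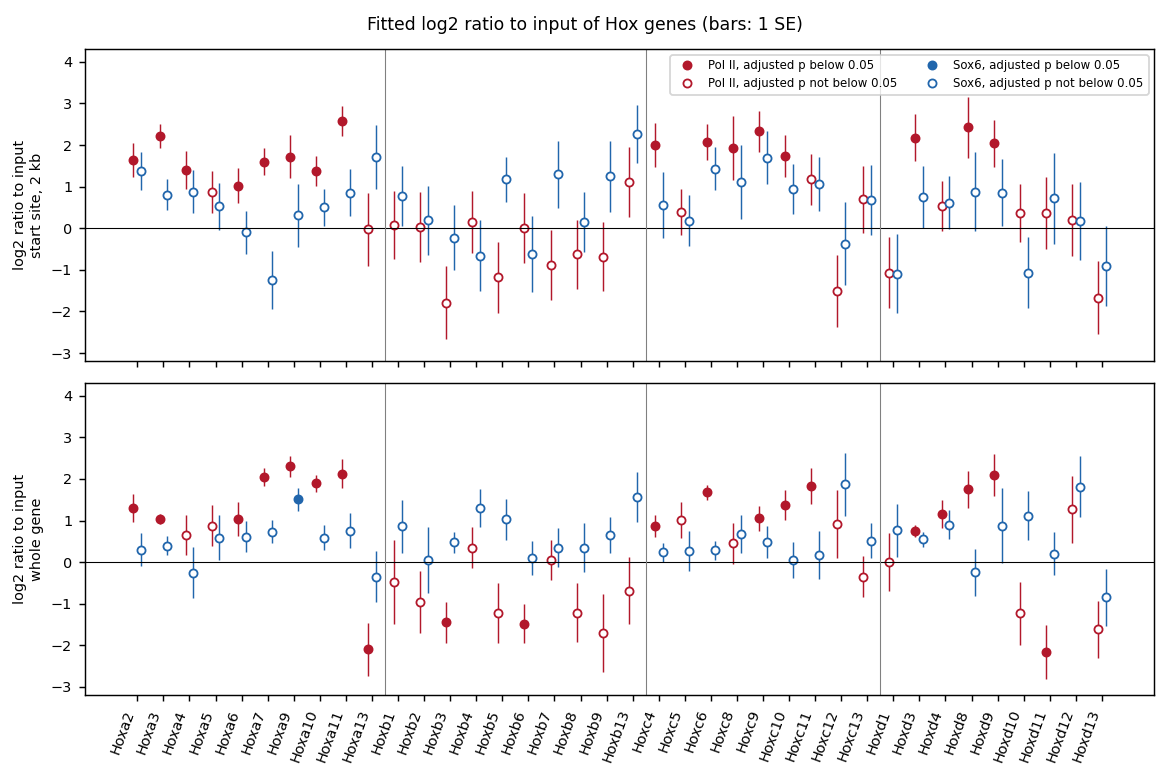
Fitted log2 ratio to input (y axis, bars 1 SE, n = 2 ChIP and 2 input libraries) of most members, some of them not named in the text (x axis, by cluster and number), at the start site (top) and over the gene (bottom) for Pol II and Sox6, with filled points for a limma adjusted p below 0.05. Filled Pol II points above 0 lie in HoxA, HoxC and HoxD, those below 0 are Hoxa13, Hoxb3, Hoxb6 and Hoxd11 over the gene, and Hoxa9 over the gene is the only filled Sox6 point.

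These levels were low beside an abundant gene. Actb, the cytoplasmic actin used as a reference, had 26.4 and 35.8 RPKM (RPM per kb of gene) of Pol II. On the same length-corrected scale the Hox gene with the highest density in both replicates, Hoxa7, had 3.74 and 2.94, or 14.2% and 8.22% of Actb. Hoxa9 had 12.4% and 6.67%, Hoxa10 11.01% and 6.56%, Hoxa11 11.98% and 5.42%, and Hoxc6 7.27% and 5.82%. Hoxa10 and Hoxa9 lay within the difference between replicates of each other. These shares are of Pol II density alone, and input density was 0.810 and 0.803 RPKM at Hoxa7 but 0.263 and 0.634 at Actb. Relative to input over the gene, Actb had a log2 ratio of 6.22 and Hoxa7 one of 2.05, so that the shares of Actb would be smaller on that scale.

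The deposited peak lists held few Pol II peaks at the clusters. Across the clusters and 20 kb to each side, replicate 1 had 6 peaks and replicate 2 had 9, all inside the clusters. HoxA held 5 and 7 of them, which is 34.4 and 48.1 peaks per Mb against 4.26 and 6.59 over the genome. Peaks per Mb do not allow for how many genes a region holds. HoxA has 11 members in 105 kb, whereas the genome figure includes stretches without genes. HoxC held 1 in each replicate, both in introns of Hoxc6, HoxD held 0 and 1, and HoxB held 0 in both. Counted again with the reads of the other replicate (450 bp around the centre, exact two-sided binomial test of Pol II against input, adjusted over the whole list), 4 of the 6 replicate 1 peaks were higher, against 87.7% of that list, and 4 of the 9 replicate 2 peaks, against 66.1%. In 1000 bp around the centre, 6 of the 6 replicate 1 peaks were higher, against 95.6% of that list. Of the 9 replicate 2 peaks 5 were, against 85.9%. The lists include peaks called in both replicates, which were 58.8% of the replicate 1 list and 31.7% of the replicate 2 list over the genome. At the clusters only 1 peak was shared within 50 bp and counts among the 4 that were higher in 450 bp in each list. It lay in an intron of Hoxa10 at position 52183731, with 4 and 6 Pol II reads in replicate 1 and 2 against 3 and 7 input reads. Around Hoxa9 and Hoxa10, replicate 1 also had peaks at 52176691, 52179351 and 52188271, of which the last was not higher in replicate 2 in 450 bp (0 Pol II reads there). A peak at 52202031, between Hoxa11 and Hoxa13, had 6 and 6 Pol II reads against 8 and 10. Further replicate 2 peaks of HoxA lay in an intron of the long Hoxa3 model 5679 bp upstream of Hoxa2, at the Hoxa3 start (661 bp wide, the broadest of all), in an untranslated exon and 1119 bp upstream of the start of Hoxa7, and in an intron of Hoxa9. The HoxD peak, at 74546791 between Hoxd8 and the Hoxd3 start, had 9 Pol II reads in replicate 2 and 1 in replicate 1.

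The peak at 52179351 had its centre within 1 kb of Mir196b, the gene of miR-196b, which lies inside the longest Hoxa9 model at chr6:52180080-52180164. Members of this microRNA family are encoded in HoxA, HoxB and HoxC and are known to target Hox mRNAs. The 2 kb around the hairpin held 11 and 9 Pol II reads against 18 and 23 input reads, and since this window also holds the Hoxa9 starts at 52180264 and 52181088 its reads cannot be told apart from those of Hoxa9. The same window around Mir196a-1 in HoxB held 0 and 1 against 11 and 10, and that around Mir196a-2 in HoxC held 4 and 3 against 17 and 23. These paralogs were added after their values were seen. The mature sequences (RefSeq, GRCm38.p6) are shown because the 3 genes share a seed, bases 2 to 8, in capitals:
mmu-miR-196b-5p, from Mir196b: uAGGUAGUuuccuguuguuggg
mmu-miR-196a-5p, from Mir196a-1 and Mir196a-2: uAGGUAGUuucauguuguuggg

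Sox6 gave a different picture. Over whole clusters its ratio to input was 1.16 and 1.62 in HoxA (270 and 201 reads), 1.06 and 1.58 in HoxB, 1.01 and 1.39 in HoxC, and 1.11 and 1.396 in HoxD. No pair of clusters differed by the exact Fisher test, with adjusted p from 0.777 to 1. The ratio was above 1 in every cluster in replicate 2, while in replicate 1 the intervals of HoxB, HoxC and HoxD included 1. At start sites 0 of 39 members were called in either direction by limma, against a background of 0.398% higher and 0% lower, and 7 had an unadjusted p below 0.05. With voom weights 0 were called and 5 had such a p. The median log2 ratio was 0.72 over the members and 0.42 over all genes. Hoxb13 had the highest ratio, from 5 and 3 Sox6 reads against 6 and 15 input reads (2.27, adjusted p = 0.177). Without Sox6 replicate 1, 22 members and 7896 of all genes were called higher, and without Sox6 replicate 2, 6 and 3499. In those fits the spread came from the 2 input libraries alone, so the counts do not show that the result depends on either Sox6 library.

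Hoxa9 was the only member called for Sox6 over the gene by limma, although 35 of 39 members had a log2 ratio above 0 and Hoxc12 (1.87), Hoxd12 (1.81) and Hoxb13 (1.56) had higher ratios that did not pass. With the replicate block 3 were called, Hoxa3, Hoxa9 and Hoxd3, beside 2855 higher and 1077 lower of 20180 genes tested. In the main fit Hoxa9 had 30 and 19 Sox6 reads against 79 and 112 input reads (log2 ratio 1.51, SE 0.28, limma adjusted p = 0.0222), while 5.46% of all genes tested were called higher and 1.65% lower. With the GC trend subtracted the call on Hoxa9 was lost by limma (0.85, adjusted p = 0.718), but only 9 of 20180 genes were then called higher. The median log2 ratio in the main fit was 0.52 over the members and 0.21 over all genes. It was 0.49 and 0.16 without input replicate 1, and 0.56 and 0.21 without input replicate 2. Without Sox6 replicate 1 it was 0.72 and 0.26, and without Sox6 replicate 2 it was 0.21 and 0.15. Hoxa9 is a posterior Hox gene known from limb and blood development.

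The reads at Hoxa9 lay at 1 place. Its 4 annotated starts, each with 1 kb to both sides, had 22 and 14 reads of Sox6 against 19 and 28 of input at position 52176150, 12 and 9 against 26 and 33 at 52177369, 1 and 2 against 19 and 20 at 52180264, and 1 and 3 against 17 and 23 at 52181088. The last is the start of the longest model and was used for the counts above, so that the start-site result of Hoxa9 did not contain the bound place. With the shortest model, which starts at 52176150, Hoxa9 was called at its start (log2 ratio 3.08, SE 0.37, adjusted p = 0.000163). Pol II at that start had 14 and 17 reads against 19 and 28, and at the longest model's start 5 and 6 against 17 and 23 (1.72, SE 0.51, adjusted p = 0.00217). With the GC trend subtracted Pol II at the longest model's start did not pass by limma (1.14, adjusted p = 0.0562).

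A deposited Sox6 peak marked this place, the only one in the 4 clusters and 20 kb to each side. Both replicate lists held it, with the same bounds, chr6:52176292-52176351, and the list of common peaks held it as chr6:52176242-52176401. Its centre lies 171 bp upstream of the start at 52176150, in an intron of the longer models. In 450 bp around the centre Sox6 had 14 and 8 reads, Pol II 2 and 7, and input 2 and 7. In RPM, Sox6 stood at 4.69 and 5.45, Pol II at 1.30 and 2.53 and input at 0.0910 and 0.289. By the exact binomial test on reads from the opposite replicate, which had called it too, adjusted over each list, the replicate 1 peak had p = 2.86e-06 and the replicate 2 peak p = 6.46e-11, in lists where 67% and 84.4% of peaks were higher. The reads tested had thus also selected this peak, and these p-values are no independent evidence for it. By its log2 ratio to input, 4.82, the peak ranked 69 of 1066 common peaks, whose median was 3.52, although input here had only 2 reads in replicate 1.

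The sequence of the common peak (mm9, chr6:52176242-52176401, minus strand, the strand of Hoxa9) is printed because it is the Sox6-bound place of the Hox clusters, and capitals mark the only match found among 6 motifs searched on both strands:
Hoxa9 common Sox6 peak: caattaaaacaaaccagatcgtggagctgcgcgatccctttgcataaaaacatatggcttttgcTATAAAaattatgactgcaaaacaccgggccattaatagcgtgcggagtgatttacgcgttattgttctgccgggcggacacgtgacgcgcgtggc
It held no ACAAAG or ACAATG (the forms of the Sox motif searched), which 53.2% of all common peaks and 12.7% of gene starts hold in a window of the same 160 bp. CAGCTG or CAGGTG (the forms of the E-box searched, in 58.6% of common peaks and 19.6% of starts) were absent as well. So were CCACA (Runx, 61.4% and 33.4%), GGAATG (Tead, 25.05% and 6.31%) and CCAAT (15.01% and 22.0%). TATAAA, the letters of the TATA box, occurred once, on the strand of Hoxa9 at chr6:52176332-52176337, and was found in 7.50% of common peaks and 6.95% of starts. This match lies more than 171 bp upstream of the start at 52176150, and whether it has a function was not tested. None of these motifs overlaps another here, and a missing match says only that these letters are not in the window. Other forms of the Sox motif and the E-box were not searched, so the window cannot be said to lack such sites. The GC content of the peak was 47.5%.

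**Figure D5:**
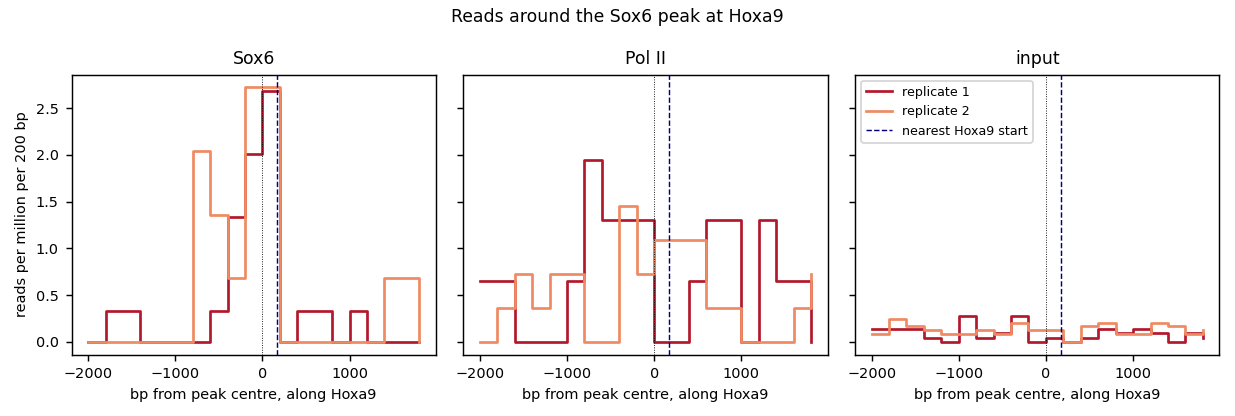
RPM in 200 bp bins (y axis) by distance from the centre of the Sox6 peak along Hoxa9 (x axis, bp, downstream to the right) for Sox6, Pol II and input, 1 line per replicate, with a dashed line at the Hoxa9 start 171 bp downstream. Both Sox6 lines are highest in the bins beside the centre, Pol II is spread over the whole 4 kb window, and input stays low throughout.

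Regulators and partners of Hox proteins were counted from lists. Of the Pbx and Meis cofactors, homeodomain proteins that bind DNA together with Hox proteins, 6 of 9 had more Pol II than input at the start, beside the 40.3% of all genes, with a list median of 1.63. Meis1 was highest (12 and 20 reads against 16 and 20, log2 ratio 3.28) and was also called for Sox6 (7 and 9 reads, 2.34, limma adjusted p = 0.0461). Pbx2 followed at 2.59, and Meis3 was lowest at 0.37, which did not pass. Of the Polycomb subunits 13 of 19 were higher (median 1.76), with Rbbp7 at 4.03 and Rbbp4 at 3.70, histone-binding proteins shared with other complexes, and Cbx7 lowest at -0.90, not called. Of the MLL and demethylase activators 7 of 10 were higher and 1 lower (median 1.81). Mll2 was at 3.52 and Mll1 at 2.78, and the lower gene was Dpy30, with 0 and 0 reads against 24 and 22 at its start, although over the gene it was higher (34 and 49 against 267 and 286, log2 ratio 0.74, adjusted p = 0.00431). Of the Cdx and retinoic acid regulators, which set Hox expression in the embryo, 3 of 14 were higher (median 0.64), namely Rxrb (3.36), Rxra (2.79) and Crabp2 (1.99), with Rarb lowest at -1.33. Over genes, Pol II was higher at 5 of 9 cofactors (1 lower), 14 of 19 Polycomb genes, 10 of 10 activators and 3 of 14 Cdx and retinoic acid regulators (3 lower), beside 39.3% higher and 23.6% lower among all genes. Sox6 was called at the start of 0 of the 43 genes of the last 3 lists, beside 0.398% of all genes. Over genes Sox6 was higher at 1 of the 9 cofactors (Pbx4), 1 Polycomb gene (Pcgf2), 2 activators (Mll2 and Kdm6b, with Kdm6a lower) and 2 retinoic acid receptor genes (Rara and Rxra), beside 5.46% of all genes, and these genes were named after their values were seen.

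Homeobox genes outside the clusters were counted in 2 lists. Of 18 other Antennapedia-type and linked homeobox genes, 0 were called higher or lower for Pol II at the start by limma, beside 40.3% higher among all genes, with a median log2 ratio of -0.33. They include Evx1 next to HoxA (0 and 1 reads against 21 and 28) and Evx2 next to HoxD (0 and 1 against 10 and 24), beyond the group 13 ends. Pdx1 (1.405) and Gsx1 (0.67) were highest and Gbx1 (-1.42) lowest, none of them called. Over genes 1 of the 18 was higher and 6 were lower, Evx1 and Evx2 among them (log2 ratio -2.13 and -1.56), with a median of -0.65, beside 39.3% higher and 23.6% lower among all genes. Of 13 limb and muscle patterning homeobox genes 5 were higher (median 0.68), a share near the 40.3% of all genes, and over genes 6 were higher and 3 lower, the latter near the 23.6% of all genes. Lbx1, needed for migrating limb muscle precursors, at 3.26, was highest and Six4 was at 1.85, whereas Prrx2 was lowest at -0.50 and not called. Sox6 was called at none of the 31 starts and over none of these genes.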

How the data were processed

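The authors fixed myotubes with disuccinimidyl glutarate and formaldehyde, sequenced Sox6 ChIP, Pol II ChIP and input DNA (2 libraries each) and aligned the reads with Bowtie 0.12.5 at default settings to NCBI Build 37 (mm9), keeping uniquely mapped reads. The deposited files hold read positions and peaks called by SISSRs against the input of each experiment, and the deposited Pol II peak files also hold a score, which was not used. Samples were grouped by the labels, and no column of per-sample values was left unused.

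Reads were counted here by their 5′ ends, in 1 kb to each side of the start site and over the longest protein-coding model of each gene (GENCODE M1, the build of the files). Log2 RPM (reads per 1000000 mapped reads), with 0.5 reads added to each count, were fitted with limma 3.58.1 (R 4.3.3, moderated with a trend, two-sided) for genes with at least 10 reads over the 4 libraries, and p-values were adjusted by the Benjamini-Hochberg method over all genes tested, with calls at 0.05. At start sites the Pol II fit took its spread from the trend over all genes. Clusters were compared by the exact Fisher test and peaks by the exact binomial test (scipy 1.17.1), and 95% intervals are Clopper-Pearson intervals on ChIP and input reads.

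The members, gene lists and tests were chosen with earlier results of these data known. Members were named, with read counts for those called or holding a deposited peak, and others by ranges or where a result turned on them. Of each list of other genes the highest log2 ratios at the start (up to 2) and the lowest were named. Alternatives changed the pseudocount, weights, filter, scaling, repeated positions, 5′ ends, GC content, windows, gene models, flanks and replicates. Scaling by chromosome was chosen after seeing the data. A few genes are not reported here by name, although the counts and medians include them.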

Additional observations from a re-analysis of the deposited data

How the results depend on the processing

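Of 82 counts recomputed under alternatives, 64 stayed within 1.5 times the reported value. The order of the clusters in Pol II stayed in every setting tried (repeated positions counted once, clusters with 20 kb to each side, and each replicate alone), with all 6 pairs different. The GC trend was not subtracted from the cluster ratios, so their dependence on GC content was not tested. Members with more Pol II at the start (17) numbered 0 with voom weights, 5 with the GC trend subtracted, and 7 to 20 when 1 library was left out. Over genes (16) they numbered 7 with the GC trend subtracted and 10 to 19 when 1 library was left out. For Sox6 at the start (0 members) the shortest model gave 1 (Hoxa9), 500 bp to each side gave 1 (Hoxc6), and leaving out 1 library gave 0 to 22. For Sox6 over genes (1 member) a pseudocount equal in RPM, the GC trend subtracted and the shortest model gave 0, and leaving out 1 library gave 0 to 18. A lone library is assumed there to vary like the pair that remains. For Sox6 over genes the main fit called 1101 of 20180 genes higher. This fell to 0 with the pseudocount equal in RPM and to 9 with the GC trend subtracted. With the shortest model it was 565 of 19945. The loss of calls in these settings was thus not limited to Hoxa9.

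Of 603 recomputed log2 ratios of called members, 489 kept their call, 110 kept their direction only and 4 changed direction. With the shortest model Hoxd3 was at -0.72 for Pol II at the start and Hoxc4 at -0.29 over the gene. With the GC trend subtracted Hoxa4 was at -0.29 and Hoxa6 at -0.19 at the start. The cause of these changes was not tested, although the shortest models use other windows.

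Scaling to peak-free bins moved the median log2 ratio of all genes from 0.74 to 1.23 for Pol II at the start and from 0.20 to 0.70 over genes, with 19 members called higher in each, beside 9801 and 9892 of all genes. Members with less Pol II over genes (4) then numbered 1, against 2 with such bins of the same chromosome, 0 with the shortest model and 8 with the GC trend subtracted. Among all genes tested the numbers called lower were 2654, 2724, 4066 and 5500, against 4746 in the main fit.

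With the replicate block, 15 members were called higher for Pol II at the start, 16 over genes, 0 for Sox6 at the start and 3 for Sox6 over genes (Hoxa3, Hoxa9 and Hoxd3). Among all genes tested these counts were 8039, 7988, 307 and 2855. In the main fits replicate numbers were not taken as pairs, because the labels name nothing that a number shares and the deviations of same-numbered libraries correlated across genes at between -0.0652 and 0.0429. The cluster ratios and the peak tests did set each ChIP against the input with the same number. The paper's peak calling likewise used the input of each experiment.

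Depth limits single genes: most members had fewer than 10 Pol II reads per library at the start, and counting intervals cover no other error.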
